A study of Zea mays subsp. mays with 2 samples.

Results

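Of 34455 single loci on chromosomes 1 to 10 of maize, 361 were near-silent in wild-type endosperm and expressed in endosperm of the dek2 mutant. Near-silent means a wild-type level above 1e-05 and under 1 FPKM, a fragment number relative to transcript length and to library size. Expressed means 3 FPKM or more in dek2 once its values were scaled down by 1.503. This factor is the median of dek2 over wild type in the 22250 rows that reached 1 FPKM in both libraries, and levels called scaled below carry it. On the deposited scale this floor is 4.51 FPKM. A locus was eligible with a coordinate listed once and a span, the distance from start to end with introns included, of 300 bp or more. The 361 loci are 1.05% of the eligible ones, and the whole table holds 45157 rows. Both libraries chose the loci, so their levels and ratios are a description and nothing is supported with them.

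The endosperm feeds the maize embryo and fills with starch and storage protein during the weeks after pollination, when a small number of storage genes takes up most of its mRNA. The defective kernel mutants, to which dek2 belongs, arrest or slow this filling. Dek2 is known from published work as a pentatricopeptide repeat protein, one of a large plant family of organellar RNA-binding proteins, that is needed to splice the mitochondrial nad1 transcript, which encodes a subunit of respiratory complex I. The loci described here are those that the rule above names near-silent in wild-type endosperm and expressed in the mutant. Near-silent here means low rather than unread, since their median wild-type level was 0.593 FPKM.

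The samples were 15 days after pollination, and both are labelled endosperm with kernel as the source. The wild-type group and the dek2 group had 1 deposited table each, and the labels name neither the genetic background nor the allele of dek2. The design text speaks of triplicates, but the sources used here do not say whether a table is a library, a pool or a mean. With n = 1 per genotype no difference here has a replicate error or a p-value, and fewer cells of a type and less RNA per cell cannot be told apart. The tables give positions without gene names. None of the 361 starts (0) equalled a gene start in the reference table at hand, which is for another assembly, so the loci are given by position as deposited, their roles are unknown, the tissue could not be checked by its marker genes, and no sequence of them is shown.

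The loci were mostly modest in level, with a thin tail of high ones. In wild type they ranged from 0.0271 to 1.00 FPKM with a median of 0.593 FPKM. In dek2 they ranged from 4.51 to 647 deposited FPKM with a median of 6.56 FPKM. The middle of the set thus lay close to both thresholds. After scaling, 233 loci were between 3 and 5 FPKM in dek2, 95 between 5 and 10 FPKM, and 33 at 10 FPKM or more. Only 17 reached 20 FPKM, 5 reached 50 FPKM and 3 reached 100 FPKM. The 361 loci summed to 203 FPKM in wild type, 0.0179% of the FPKM sum of all rows, and to 4539 FPKM in dek2, 0.423% of that sum in dek2. These are shares of summed FPKM, not of fragments. The 10 highest loci held 34.7% of this dek2 sum.

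**Figure D1:**
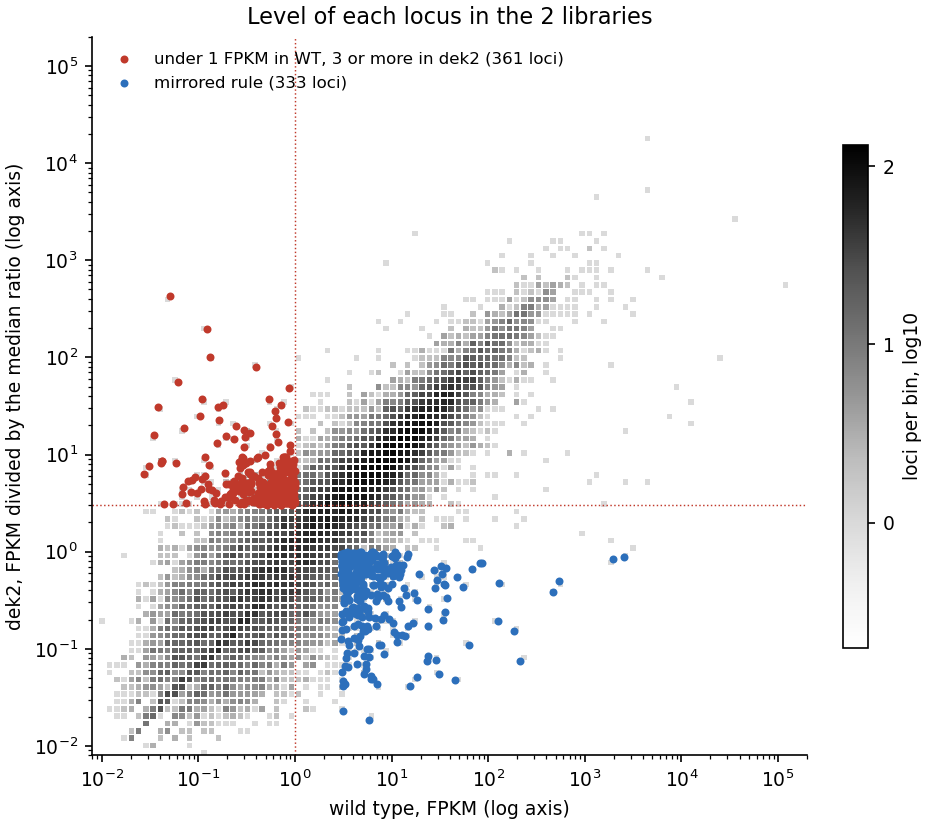
Wild-type FPKM (x axis, log scale) against dek2 FPKM divided by the median ratio (y axis, log scale) for eligible loci with a value in both libraries. Grey squares are bins shaded by their number of loci, red points are the 361 loci near-silent in wild type and at 3 FPKM or more in dek2, blue points are the 333 loci of the mirrored rule, and dotted lines mark 1 and 3 FPKM. Most red points sit just beside the dotted lines, and 3 lie at 100 FPKM or more.

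The direct ratio of scaled dek2 to wild type had a median of 8.38 and was at least 3.23 in every one of the 361 loci. It reached 10 in 143 loci, 50 in 37 and 100 in 19. With a pseudocount of 1 FPKM added to both libraries, the log2 ratio had a median of 1.81, against 0.03 over all eligible loci. On that scale dek2 was at least 2-fold higher in all 361 loci, which the rule fixes, and at least 8-fold higher in 38. The background among the 19779 eligible loci that reached 1 FPKM in a library was 12.7% for 2-fold and 0.602% for 8-fold. All ratios below are log2 ratios with this pseudocount unless another scale is named.

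The thresholds cut through a continuous distribution. Just inside the wild-type ceiling, chromosome 5 held a locus from 181257449 to 181261136 at 0.99959 FPKM (wild type) and 7.41 FPKM (dek2). Chromosome 2 held another from 27506848 to 27511579 at 0.998 and 4.91 FPKM. Just outside were loci with 1.003 and 5.73 FPKM (chromosome 8, from 123038308 to 123042569) and with 1.0029 and 4.79 FPKM (chromosome 5, from 209791112 to 209803331). At the dek2 floor, the loci just inside had 4.51 and 4.52 deposited FPKM (chromosome 8, from 61163372 to 61164815, and chromosome 3, from 191821977 to 191826354). Those just outside had 4.491 and 4.489 FPKM (chromosome 1, from 166082625 to 166084385, and chromosome 4, from 195196491 to 195197825). Nothing in these 8 loci separates those inside from those outside except the rule itself.

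The set was compared with the loci it was drawn from. Of 11856 eligible loci that were near-silent in wild type, 2638 had no value in dek2, 7532 stayed under 1 scaled FPKM, and 1325 lay between 1 and 3 FPKM. The 361 loci at 3 FPKM or more made up 3.04% of them. The same rule with the libraries exchanged, near-silent in dek2 and 3 FPKM or more in wild type, gave 333 of 13780 loci, or 2.42%. The loci read in dek2 were thus about as many as those of the mirrored rule, at 52.0% of both sets together, and this split depends on the scaling. On the deposited values the numbers were 672 and 210, a split of 76.2%. With the sums of the libraries set equal without the top 100 rows of each, they were 346 and 354, a split of 49.4%, which turns the direction.

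At higher levels the order of both sets turned with the scaling too. With the median scaling, at 5 FPKM or more the numbers were 128 in the set and 173 in the mirrored set, at 10 FPKM or more 33 and 68, and at 100 FPKM or more 3 and 8. The mirrored loci summed to 8885 FPKM (wild type) and 261 FPKM (dek2), and their direct ratio of wild type to scaled dek2 had a median of 11.7. Single loci at 2527 and 1952 FPKM held much of this wild-type sum, which was 3528 FPKM for the mirrored set of the deposited values. On the deposited values the numbers were 307 and 115 at 5 FPKM or more and 74 and 51 at 10 FPKM or more, so the set was the larger there, and 4 and 6 at 100 FPKM or more.

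How often a near-silent locus was expressed in dek2 followed its wild-type level. Among loci under 0.1 FPKM in wild type, 21 of 2702 reached 3 FPKM in dek2, or 0.777%. The share was 2.15% between 0.2 and 0.4 FPKM, 4.38% between 0.4 and 0.6 FPKM, and 9.57% (92 of 961) between 0.8 and 1 FPKM. The mirrored rule gave 0.756% in its lowest and 7.82% in its highest class. Both sets were thus filled mainly from loci that were low rather than from loci near 0. The 21 loci that started under 0.1 FPKM are 5.82% of the set.

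**Figure D2:**
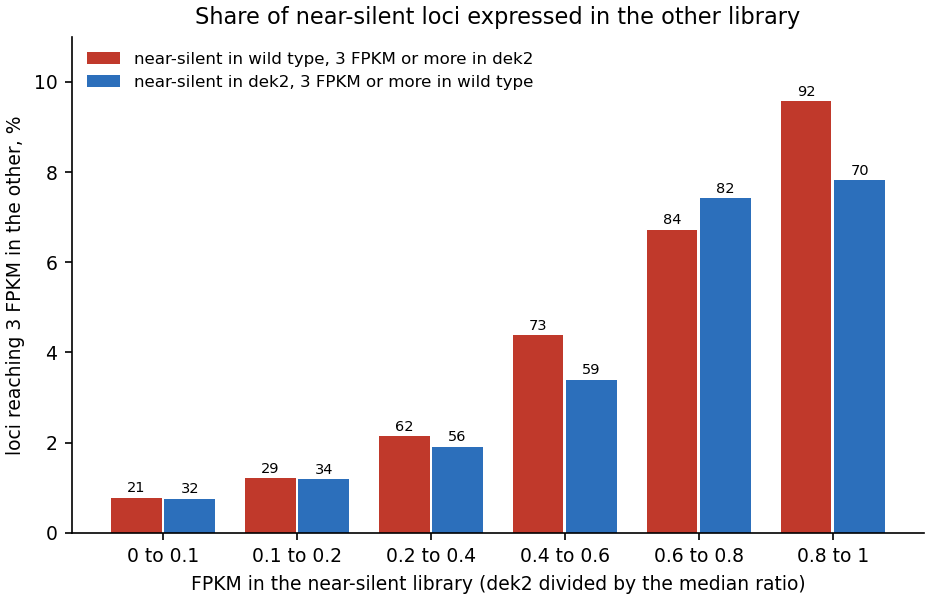
Percent of near-silent loci that reached 3 FPKM in the other library (y axis), by FPKM in the near-silent library (x axis, 6 classes), with the number of such loci above each bar. Red bars start from wild type and blue bars from dek2. Both rise from under 1% in the lowest class to 9.57% and 7.82% in the highest.

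The lowest values fell on a common step. The tables give no counts, but the product of FPKM and span in kilobases had a separate lowest peak in loci of 600 to under 1500 bp, where introns are short. It peaked at 0.110 in wild type and 0.101 in dek2, which is what 1 fragment would be worth if a table is a single library and the transcript fills most of the span. Neither was checked. In units of this step, the 111 loci of the set in this span range had between 0.747 and 12.2 steps in wild type, with a median of 5.30. Of these, 8 had under 1.5 steps and 54 under 5 steps. In dek2 the same loci had at least 30.6 steps, with a median of 70.7. The ceiling and the floor of the rule fix this difference between the libraries. The steps are an approximate scale, not counts, so no counting interval is given.

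**Figure D3:**
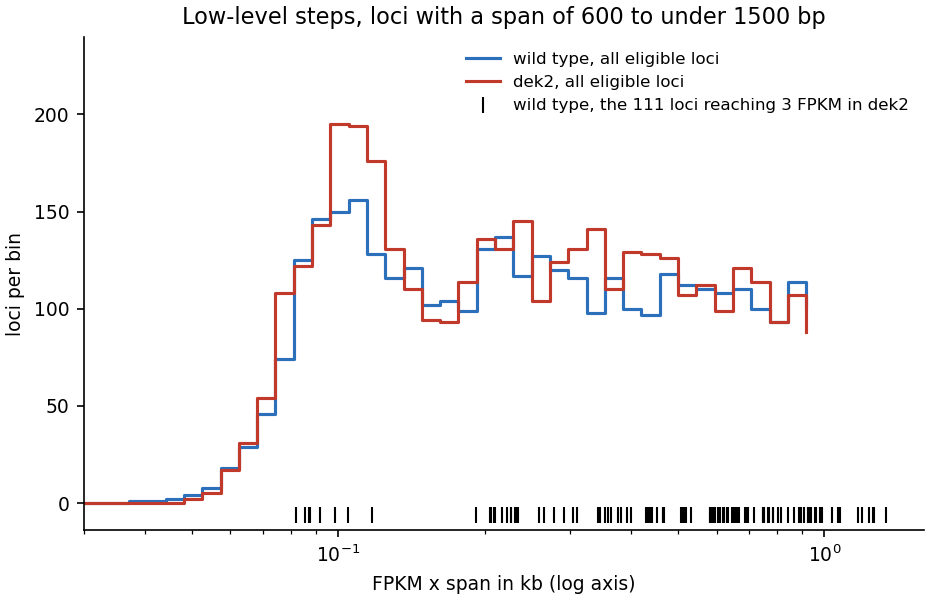
Number of eligible loci with a span of 600 to under 1500 bp (y axis) by the product of FPKM and span in kb (x axis, log scale, shown up to 1 for the lines). The blue line is wild type and the red line dek2, and black ticks are the wild-type products of the 111 loci that reached 3 FPKM in dek2. Both lines peak near 0.1, a dip separates this peak from the next rise, and 8 ticks lie at the peak.

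The highest locus in dek2 lay on chromosome 10 from 46063646 to 46066005. It had 0.0507 FPKM (wild type) and 647 FPKM (dek2), a log2 ratio of 8.68, and ranked 96 among eligible loci in dek2. Its wild-type value corresponds to about 1.09 steps on the scale of the shorter loci. Its neighbours did not share this level. The locus 57432 bp before it was lower in dek2, with 4.27 FPKM (wild type) and 1.09 FPKM (dek2), and the one 116031 bp after it, only 184 bp long, had 23.6 FPKM in dek2 and no wild-type value.

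The next in order lay on chromosome 1 from 11298551 to 11299266, with 0.122 FPKM (wild type) and 292 FPKM (dek2) (log2 ratio 7.44). It stood in a tight row of loci. The neighbour 399 bp before it had 0.136 FPKM in dek2 with no wild-type value, and the neighbour 386 bp after it had 30.6 and 76.8 FPKM, a log2 ratio of 0.72. The level of the locus in dek2 was thus above that of either neighbour. Whether reads of adjoining transcripts were assigned to it was not tested.

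The third locus, on chromosome 2 from 12345072 to 12348033, had 0.131 FPKM (wild type) and 152 FPKM (dek2) (log2 ratio 6.50). Both its neighbours stayed under 1 FPKM in both libraries. The fourth, on chromosome 8 from 167532925 to 167534041, had 0.391 and 120 FPKM (5.86). Its neighbour 4536 bp on had 10.1 and 11.95 deposited FPKM (-0.31), and that 117450 bp before it had 2.96 and 0.217 FPKM (-1.79). The fifth, on chromosome 2 from 213854717 to 213857130, had 0.0614 and 83.5 FPKM (5.74) and belongs to a pair described with the runs. These 5 loci also had the 5 highest log2 ratios of the set.

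The remaining loci among the 10 highest had between 48.5 and 72.1 FPKM in dek2. A short locus of 360 bp on chromosome 9, from 98988776 to 98989136, had 0.876 FPKM (wild type) and 72.1 FPKM (dek2). On chromosome 5 from 19078179 to 19079565 the values were 0.540 and 56.2 FPKM. The neighbour 1023 bp before this locus had 33.6 and 40.7 FPKM (-0.30), and that 3344 bp after it had 2.64 and 0.372 FPKM (-1.54). On chromosome 1 from 156394371 to 156399156 the values were 0.110 and 55.7 FPKM, and the nearest other locus lay 79345 bp away. Another locus on chromosome 1, from 39657907 to 39659050, had 0.180 and 48.7 FPKM, and both its neighbours stayed under 1 FPKM. The last, on chromosome 4 from 186680999 to 186686184, had 0.716 and 48.5 FPKM, between a neighbour at 27.8 and 15.9 FPKM and one at 91.0 and 270 FPKM. Of the nearest neighbours of these 10 loci, 15 were at 1 FPKM or more in a library. Of these, 3 were at least 2-fold higher and 5 at least 2-fold lower in dek2. Over all coordinates at that level the shares were 13.5% and 12.3%. Among the higher ones, those on chromosome 2 (start 213866058) and chromosome 9 (start 98990880) belong to the set. Among the lower ones, that on chromosome 10 (start 46005661) belongs to the mirrored set. The rule had fixed the direction of these neighbours.

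**Figure D4:**
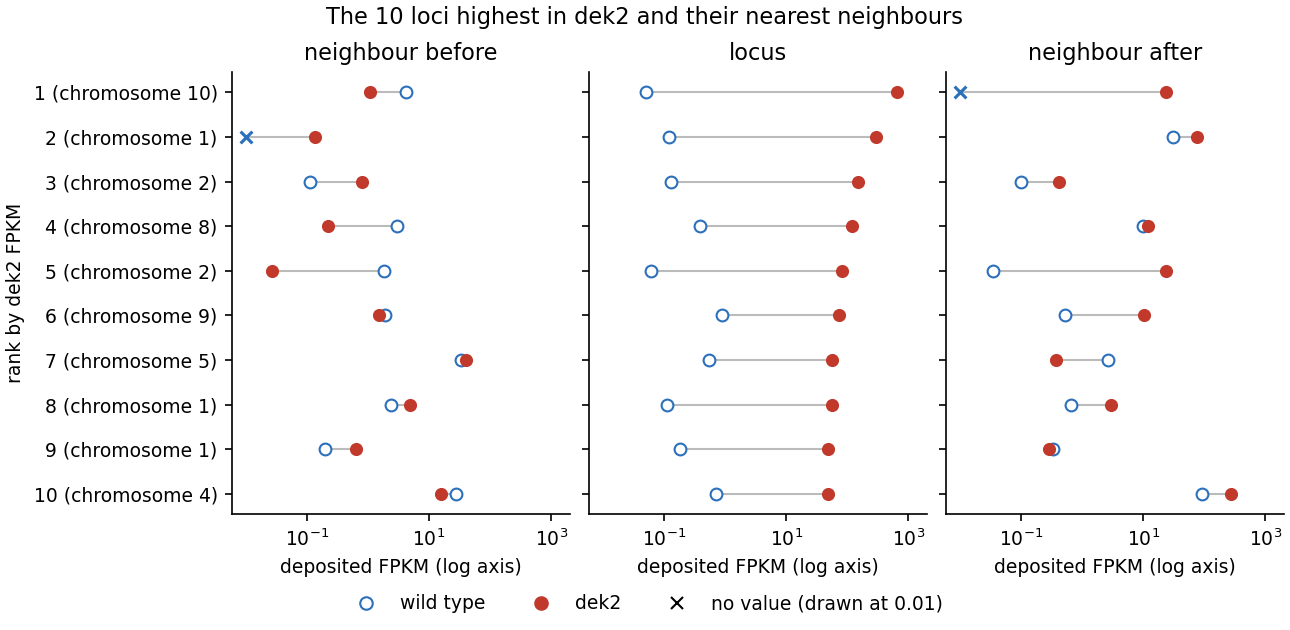
Deposited FPKM (x axes, log scale) of the 10 loci highest in dek2 (y axis, in order of dek2 level, with their chromosome) in the middle panel and of the nearest locus before and after each in the side panels. Open blue circles are wild type, red circles dek2, and crosses mark no value, drawn at 0.01. The middle panel shows 10 wide gaps between the libraries, from 48.5 to 647 FPKM in dek2, while most neighbours differ far less.

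The loci were of ordinary length. Their median span was 1884 bp, against 1952 bp for the other 11495 near-silent loci, 2457 bp for all eligible loci and 1590 bp for the mirrored set. The middle 50% lay between 1054 and 3172 bp. The share of near-silent loci that reached 3 FPKM in dek2 showed no steady trend with span, from 2.34% at 5000 to 10000 bp to 3.95% (6 of 152) at 20000 bp and above. The longest locus was on chromosome 1 from 295187053 to 295270267, a span of 83214 bp, with 0.990 FPKM (wild type) and 5.398 FPKM (dek2). Next came spans of 36290 bp on chromosome 8, from 135584631 to 135620921, with 0.599 and 6.91 FPKM, and of 24582 bp on chromosome 1, from 182200078 to 182224660, with 0.557 and 5.46 FPKM.

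Of the 3 shortest loci, 2 had higher dek2 levels than any of these long ones. The shortest, 306 bp on chromosome 3 from 204791569 to 204791875, had 0.730 FPKM (wild type) and 8.22 FPKM (dek2). The other two spanned 321 bp each. That on chromosome 2, from 42631875 to 42632196, had 0.812 and 13.2 FPKM, and that on chromosome 3, from 231026711 to 231027032, had 0.931 and 5.88 FPKM. Short loci reach a given FPKM from fewer fragments, so their values are the least precise.

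All 10 chromosomes carried such loci. The share of eligible loci lay between 0.683% on chromosome 7 (18 loci) and 1.29% on chromosome 3 (47 loci), and chromosome 1 held the most, 65. The mirrored set was larger on chromosome 7 (32 loci) and on chromosome 6 (36 against 29), equal on chromosome 9 (21 each), and smaller on the other chromosomes. Along the chromosomes the set, like loci in general, had fewer loci in the middle, and its share there was lower still. The middle 20% of chromosome length held 31 loci, or 8.59% of the set, against 13.3% of all near-silent loci and 12.04% of eligible ones. The last 20% held 123 loci, or 34.1%, against 28.8% and 31.1%. The mirrored set had 12.6% of its loci in the middle 20% and 30.9% in the last 20%. Local density was ordinary, with a median of 24 other loci starting within 500 kb, against 22 for the other near-silent loci and 23 for eligible ones.

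The immediate surroundings were read about as often as around the mirrored set. None (0) of the 361 loci overlapped another listed coordinate, but overlap was rare throughout, with 5 of all 34455 eligible loci and 1 of the 333 mirrored loci. The nearest other locus lay a median of 3917 bp away, against 5091 bp for the other near-silent loci, 4312 bp for all eligible loci and 5623 bp for the mirrored set. It was within 1000 bp for 75 loci (20.8%, against 21.1% of the other near-silent loci). Of the 722 nearest neighbours, 1 on each side, 473 (65.5%) reached 1 FPKM in wild type or, scaled, in dek2. This share was 66.5% around the mirrored set, 61.5% around all eligible loci and 58.1% around the other near-silent loci. Both neighbours were at this level for 162 loci (44.9%), against 43.5%, 38.9% and 34.9% in the same order. Neither was for 50 loci (13.9%), against 10.5%, 16.0% and 18.8%.

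Some neighbours differed between the libraries as well. Of the 473 neighbours at this level, 16 were themselves in the set and 6 in the mirrored set, so the rule had fixed their direction, and loci of both sets were left out of the comparison. Among the remaining 451 neighbours, dek2 was at least 2-fold higher in 79 (17.5%) and at least 2-fold lower in 43 (9.53%), and the median log2 ratio was 0.13. Around the other near-silent loci, with the same loci left out, the median of 12973 neighbours was 0.02, 12.4% being higher and 11.97% lower. Around the mirrored set the median of 413 neighbours was 0.07, 10.2% being higher and 15.5% lower. Loci of both sets kept, the 473 neighbours had a median of 0.16, 95 (20.1%) being higher and 49 (10.4%) lower, and over all 24618 coordinates at that level the shares were 13.5% and 12.3%. No test was made, since neighbours share 1 pair of libraries and are not replicates.

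The difference from the other near-silent loci lay mainly beside loci near the floor. Loci of both sets again left out, the median log2 ratio was 0.18 for the 294 neighbours of loci at 3 to 5 scaled FPKM, with 57 higher (19.4%) and 21 lower (7.14%). For loci at 5 to 10 FPKM the median was 0.02, with 13.8% of 116 neighbours higher and 14.7% lower. For loci at 10 FPKM or more the median was -0.23, with 6 of 41 neighbours higher and 5 lower. With the wild-type ceiling lowered to 0.5 FPKM, 13.8% of 174 neighbours were higher, against 13.4% around the other near-silent loci, and both medians were 0.03. With the floor raised to 5 FPKM, 16.4% of 165 neighbours were higher and 15.2% lower, against 13.3% and 12.3%. The changed ceiling and floor also redefine both sets. Loci left out in the values by level can thus return as neighbours, and the shares are not directly comparable.

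Distance and order gave no steady decline. With the same loci left out, neighbours less than 1000 bp away had a median log2 ratio of 0.14 (60 neighbours, 15.0% higher) and those at 1000 to 5000 bp 0.21 (99 neighbours, 21.2% higher). The median was 0.14 at 5000 to 20000 bp and 0.17 at 20000 to 100000 bp, and -0.23 in the 59 neighbours beyond that. By order along the chromosome, 17.5% of adjacent neighbours were higher in dek2, 12.6% of the next, 14.4% of the third, 15.0% of the fourth and 11.5% of the fifth. Around the other near-silent loci these shares were 12.4%, 12.1%, 12.3%, 12.4% and 12.8%.

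**Figure D5:**
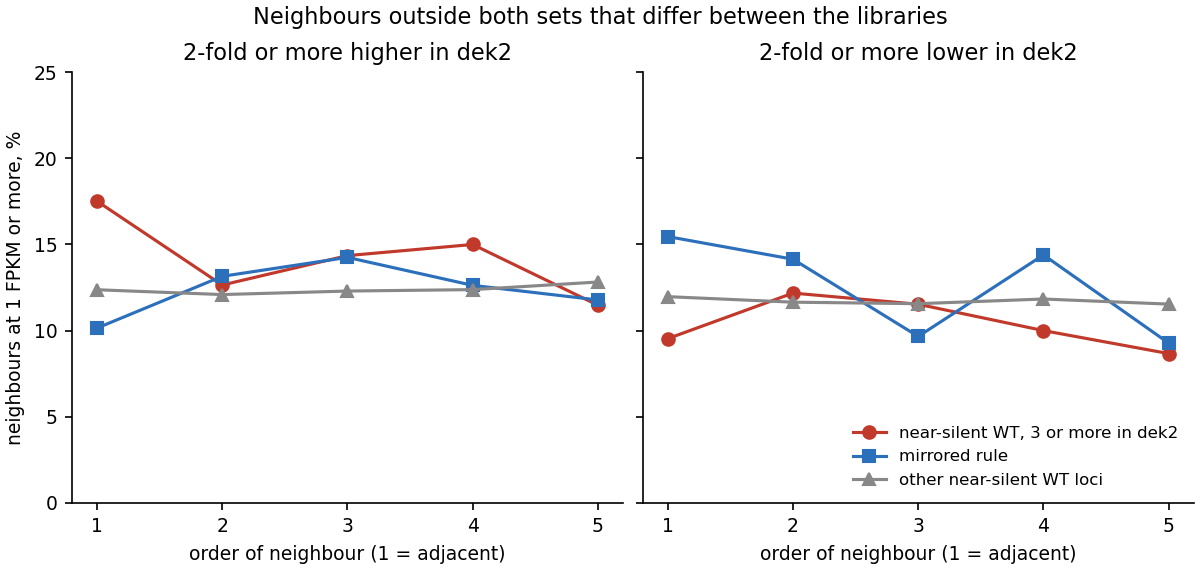
Percent of neighbours at 1 FPKM or more, loci of both sets left out, that were at least 2-fold higher (left panel) or lower (right panel) in dek2 (y axis), by order of the neighbour along the chromosome (x axis, 1 is adjacent). Red circles are neighbours of the 361 loci, blue squares of the mirrored set and grey triangles of the other near-silent loci. At order 1 red is highest on the left (17.5%) and blue highest on the right (15.5%).

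Of the 361 loci, 15 were next to another locus of the set, in 7 runs of which 6 were pairs. Leaving out loci of the set took their neighbours at 1 FPKM or more from 473 to 457. Around the other near-silent loci the same step took the neighbours from 13344 to 13148. Whether this grouping exceeds a random placement was not tested. The run with the highest dek2 sum was the pair on chromosome 2 that starts at 213854717. Its second locus, 8928 bp on, from 213866058 to 213868082, had 0.0344 FPKM (wild type) and 23.7 FPKM (dek2) (log2 ratio 4.02). Both loci of this pair were under 0.1 FPKM in wild type and at least 8-fold higher in dek2, while the locus 3371 bp before them went the other way, from 1.81 FPKM in wild type to 0.0264 FPKM in dek2.

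The second run paired the short locus on chromosome 9 that starts at 98988776 with a locus of 348 bp, 1744 bp on, that had 0.526 and 10.1 FPKM. The only run of 3 lay on chromosome 8, with wild-type levels of 0.793, 0.766 and 0.669 FPKM and dek2 levels of 6.56, 8.39 and 5.28 FPKM, at starts 119778243, 119780920 and 119985733. A pair on chromosome 1 (starts 144243096 and 144249069) had 0.343 and 0.846 FPKM in wild type and 12.8 and 4.81 FPKM in dek2. On chromosome 10 a pair 58081 bp apart (starts 125155890 and 125215780) had 0.755 and 0.0962 FPKM in wild type and 11.4 and 5.99 FPKM in dek2. On chromosome 4 a pair 63260 bp apart (starts 208592930 and 208661137) had 0.207 and 0.262 FPKM in wild type and 4.64 and 12.7 FPKM in dek2.

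The seventh run is named here because of its spacing, seen in the data. Its loci on chromosome 3, from 28919072 to 28923612 and from 28923628 to 28925016, were 16 bp apart and had nearly equal values, 0.452 and 0.469 FPKM in wild type and 4.83 and 5.90 FPKM in dek2. Neighbouring loci of like sequence or a transcript crossing both coordinates can share reads, and neither was tested.

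A few loci of the set lay beside a locus that differed strongly. Of the 451 neighbours outside both sets, 7 were at least 8-fold higher and 5 at least 8-fold lower in dek2, against 147 and 146 of 12973 around the other near-silent loci. The largest ratio was that of a stretch of 101 bp on chromosome 9 from 142904443 to 142904544, with 4180 FPKM in dek2 and no wild-type value, 1970 bp from a locus at 0.890 and 6.64 FPKM. A similar stretch of 111 bp on chromosome 6, with 593 FPKM in dek2 and no wild-type value, lay 4676 bp from a locus at 0.651 and 5.27 FPKM. Both stretches are shorter than the 300 bp asked of the set, so their FPKM values are imprecise. Both count among the 7 neighbours that were at least 8-fold higher. On chromosome 3, a locus at 0.630 and 8.82 FPKM (from 217218198 to 217221692) lay 38182 bp from one at 7.38 and 329 FPKM. In the opposite sense, chromosome 5 held a locus from 187018203 to 187022091 at 0.323 and 7.48 FPKM that lay 3256 bp from one that was lower in dek2, at 65.2 FPKM (wild type) and 7.95 FPKM (dek2). These cases were chosen by the size of the neighbour's ratio after the values were seen.

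Some loci had a much stronger neighbour close by. A neighbour within 5000 bp had at least 10 times the dek2 level of the locus in 7 cases of 361. Of the 361 loci, 193 (53.5%) had another locus less than 5000 bp away. This share was 49.7% for the other near-silent loci, 52.4% for all eligible loci and 47.1% for the mirrored set. The same count was not made around other loci, so whether 7 is few cannot be said. In 5 of the 7 the neighbour was also well expressed in wild type, at 39.9 to 316 FPKM. The locus itself stayed between 0.114 and 0.645 FPKM there, and the rule holds every locus of the set under 1 FPKM. The part of such neighbours in the values of the other loci was not tested.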

How the data were processed

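RNA of endosperm from wild type and dek2 (1 deposited table each) was analysed. The authors deposited FPKM per chromosome coordinate, per the file headers; Bowtie 0.12.2 was used, per the submitters' processing notes. Not given in the sources used here are the FPKM program, genome build and strand setting, and depth is divided out of FPKM. A value of 1e-05 or less (6124 rows in wild type, 3701 in dek2) was taken as no value. Rows were paired line by line, since both tables list the same coordinates in the same order. Rows of a shared coordinate were summed when they served as neighbours.

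Neighbours are the nearest coordinates on chromosomes 1 to 10 that do not overlap the locus. Loci were named by rule: the 10 highest in dek2, the 5 highest ratios, the 3 longest and 3 shortest, 6 runs and the loci at the thresholds. The members, lists and comparisons were chosen with earlier results of these data known. No test was made with n = 1. The rule and the neighbour search were tested on simulated data. Python 3.11.15, numpy 2.4.6, pandas 2.3.3 and matplotlib 3.10.9 were used.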

Additional observations from a re-analysis of the deposited data

How the results depend on the processing

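The size of the set depended on its thresholds and on the scaling, by construction. The 361 loci became 672 on the deposited values, 142 with a wild-type ceiling of 0.5 FPKM and 128 with a dek2 floor of 5 FPKM. The share of near-silent loci (3.04%) became 5.67%, 1.6% and 1.08%, the number next to another locus of the set (15) became 47, 6 and 4, and the mirrored set (333) became 210, 156 and 173. All 361 loci were among the 672. A pseudocount of 0.1 raised the median log2 ratio from 1.81 to 2.83. The median log2 ratio of the neighbours (0.16) was the least stable value: 0.67 on the deposited values, where it was 0.54 around the other near-silent loci, 0.0703 with the lower ceiling, 0.0252 with the higher floor, 0.11 with spans of 1000 bp or more and 0.0793 with no filter on the neighbour's level. Loci of both sets kept, the share of higher neighbours exceeded that around the other near-silent loci in each of these alternatives where computed. It ran from 16.6% against 13.8% (lower ceiling) to 35.2% against 28.5% (deposited values). The share of lower neighbours, 10.4% against 12.9%, turned to 14.8% against 12.8% with the higher floor. These shares include neighbours whose direction the rule had fixed. With both sets, as each setting defines them, left out, the share of higher neighbours was 13.8% against 13.4% with the lower ceiling. On the deposited values it was 31.6% against 26.7%. Leaving out loci that overlap another coordinate could not change the set, since none (0) of its loci overlapped one. Summing shared coordinates, leaving out neighbours in either set, both other scalings of the mirrored set and its thresholds, and the single-locus settings were chosen after seeing the data. No paired analysis was possible because each genotype has 1 deposited table, and leaving out a replicate was not possible for the same reason. Depth is unknown, and wild-type levels of a few steps and loci near 300 bp are the least precise.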

Other observations

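Loci with no value in a library stand outside the rule. Of 4772 eligible loci with no value in wild type, 93 (1.95%) reached 3 scaled FPKM in dek2, with a median of 9.34 deposited FPKM, a highest value of 8657 FPKM and a median span of 855 bp. Of 2855 eligible loci with no value in dek2, 57 (1.996%) reached 3 FPKM in wild type, with a median of 6.24 FPKM, a highest value of 811 FPKM and a median span of 752 bp. Both groups were shorter than the near-silent loci that were expressed in the other library (medians of 1884 and 1590 bp). The span of all eligible loci with no value is not given here, so whether shortness is particular to these groups cannot be said.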
